A study of Mus musculus with 18 samples.

Results

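The comparison set a myoepithelial fraction (MYO) of the mouse mammary gland against a fraction enriched for colony forming cells (CFC), the progenitors that give rise to colonies in culture. Its members were taken by their labels and number 6 of the 9 RNA samples of the series, MYO1 to MYO3 and CFC1 to CFC3. Each RNA sample was hybridised to 2 Affymetrix expression arrays that carry mostly different probe sets, chip A (MOE430A) and chip B (MOE430B), so 12 of 18 arrays entered. Per the labels, the CFC samples were sorted from freshly dissociated tissue by negative magnetic selection and flow cytometry, held 1 colony forming cell per 10 cells, and gave RNA from 3000 to 4000 cells. The MYO samples were basal cells of about 94% purity, obtained by immunomagnetic enrichment and flow cytometry and described as low in stem cells, with RNA from 3000 to 24000 cells. No treatment of the cells is named, and strain, age, reproductive state and the sort antibodies are not given in the labels. Biological triplicates are stated for CFC only. If the 3 MYO samples share an animal or a preparation, the p-values cover only a spread that may be technical. The CFC label also limits what the fraction models, since most of its cells are not colony forming cells.

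The mammary epithelium is a bilayer. Its outer, basal layer consists of myoepithelial cells, which carry the keratins Krt5 and Krt14, rest on the basement membrane they help to build, and contract with a smooth muscle apparatus in response to oxytocin to eject milk. The inner, luminal layer carries the keratins Krt8, Krt18 and Krt19, seals the lumen with tight junctions, senses ovarian hormones and, in lactation, makes the caseins and the fat globules of milk. In the mouse, most cells that form colonies in culture belong to the luminal layer.

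The values are probe set signals of the Affymetrix MAS5 algorithm on a linear scale, with a trimmed mean of about 1500 on every array as deposited. Differences are given as MYO minus CFC on the log2(signal + 150) scale, with their standard error, and understate the change of dim genes. Called genes are those with an adjusted p under 0.05 in limma, fitted on each chip alone. Of 16452 genes tested, 175 (1.06%) were called higher in MYO and 100 (0.608%) lower, and the median difference over all genes was -0.02. Chip A held nearly all of them, with 172 of 10705 genes higher (1.61%) and 98 lower (0.915%). A gene with a tested probe set on chip A was counted there. Of 18138 probe sets on chip A 262 were called higher and 149 lower, and of 19945 on chip B 24 and 5. On chip B 3 of 5747 genes were called higher (0.0522%) and 2 lower (0.0348%). An unadjusted p under 0.05 was found for 155 higher and 160 lower, which is near the number this threshold gives with no difference in any gene. In 1024 genes (6.22%) the 3 MYO arrays all lay above the 3 CFC arrays, and in 1166 (7.09%) all lay below. With 3 arrays per group such separation also arises often without a difference, so a lack of overlap is given below as description only.

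The arrays of a group differed widely among themselves. Pearson correlations over the tested chip A probe sets were 0.686 to 0.748 within CFC, 0.670 to 0.742 within MYO and 0.616 to 0.760 between the groups. The highest of these, 0.760, was between CFC1 and MYO2, and this pair was also the most alike on chip B (0.558). The median SD within a group was 0.65 on the log2 scale on chip A and 0.79 on chip B. MYO2 was scanned on another day than the other 5 arrays of chip A, and MYO3 on another day than the other 5 of chip B. Scan day as a block gave 94 genes higher and 77 lower, and leaving out MYO2 on both chips gave 87 and 83. Leaving out CFC2 gave 151 and 62. The variance trend, by which limma lets the spread depend on signal, carried many calls: without it 35 genes were called higher and 10 lower, and 32 of the 105 called genes chosen by the naming rule kept their call. Of the 275 called genes, 124 kept their call whichever sample was left out, and the samples that ended a call are given beside the genes concerned. Several tested probe sets were present for 169 called genes, and in 66 of these another was called the same way. In none was another called in the opposite direction. Named genes with no other probe set called include Csn3, Krt17, Gnai1, Anxa1, Smim22, Ccnd2, Aldh2, Hmgcs1, Cnp and Pfkp. For each gene list the count of calls without the trend is given where it differs by more than 1.5 times.

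**Figure D1:**
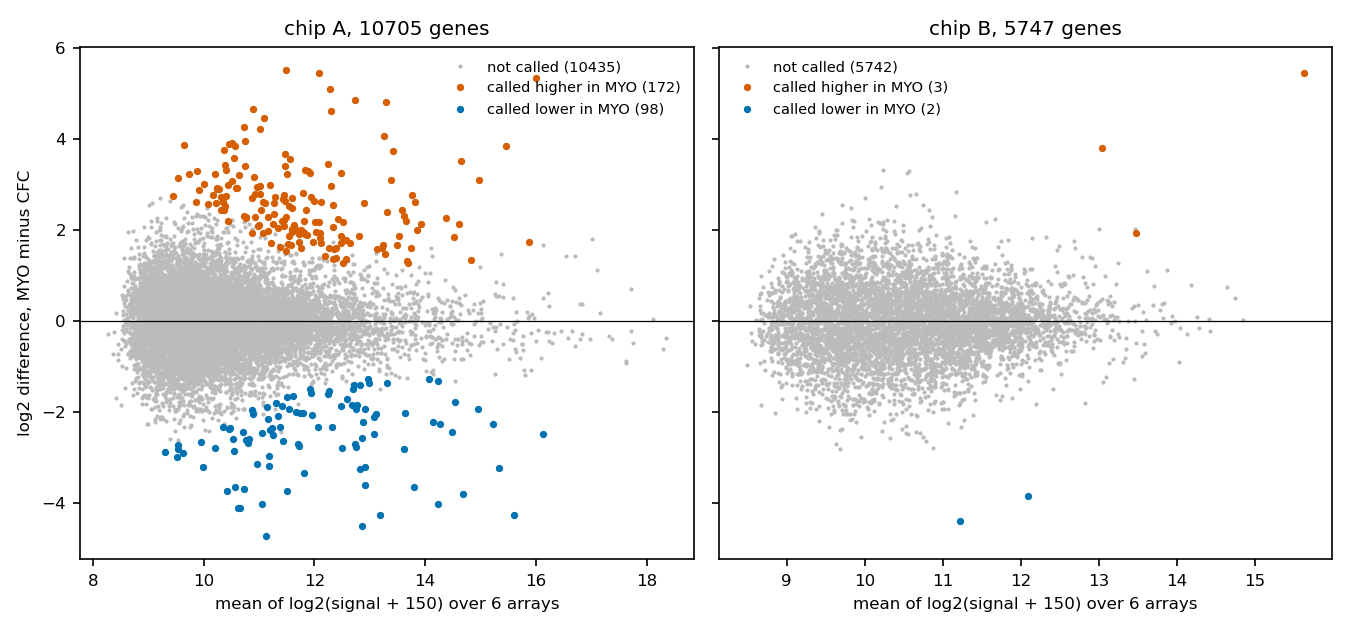
Difference between MYO and CFC against mean signal for every gene tested, on chip A (left) and chip B (right). Each point is 1 gene, the horizontal axis is the mean of log2(signal + 150) over 6 arrays, the vertical axis is the log2 difference, and coloured points are the called genes (172 higher and 98 lower on chip A, 3 and 2 on chip B). Calls are few among dim genes. On both chips the median SD within groups was lowest among the brightest probe sets.

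Genes of the contractile apparatus had the highest median of the lists examined. Of 28 tested smooth muscle contractile genes, 15 rose and none fell, with a median difference of 1.86 against -0.02 over all genes. Tagln, the gene of transgelin, an actin cross-linking protein, had signals of 153, 1607 and 368 in CFC and 22483, 44023 and 23872 in MYO. The arrays did not overlap, and the lowest MYO array stood far above the highest CFC array (log2 difference 5.47 ± 0.48, adjusted p = 3.25e-08). Acta2, smooth muscle alpha-actin and the gene most used to mark myoepithelium, gave 6515, 18331 and 8849 in CFC and 333785, 473904 and 465964 in MYO, a 40.5-fold difference (log2 difference 5.34 ± 0.45, adjusted p = 2.23e-08). All 3 MYO arrays were among the brightest values of the comparison, and the CFC arrays were low but not dark. In sorted bulk samples, fewer cells of a type and less RNA per cell cannot be told apart. A dim second probe set of Acta2 on chip B, at 166 to 990 on all 6 arrays, had a difference of 0.02.

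Other genes of the thick and thin filaments were higher in MYO too. Tpm2, the beta-tropomyosin of the thin filament, had signals of 2630, 1627 and 1182 in CFC and 43639, 39408 and 86438 in MYO (log2 difference 4.83 ± 0.37, adjusted p = 6.08e-09). Myh11, the smooth muscle myosin heavy chain, had 72.9, 592 and 168 in CFC and 5586, 11016 and 13363 in MYO (log2 difference 4.67 ± 0.54, adjusted p = 2.46e-06). Neither gene overlapped between the groups, and CFC1 and CFC3 were below 300 for Myh11. Cnn1, which encodes calponin, an inhibitor of the myosin ATPase, was likewise low in every CFC array, at 92.9, 207 and 408 in CFC and 3431, 7867 and 5308 in MYO (log2 difference 3.89 ± 0.60, adjusted p = 0.000126). The other called members were Mylk, the kinase that activates smooth muscle myosin, Myl9, Actg2, Tgfb1i1, Smtn, Cald1, Tpm1, Csrp1, Flna and Cnn2. The count of 15 dropped to 9 without MYO2, to 8 with scan day as a block and to 6 without the variance trend. Calls were lost for Actg2 without MYO1, MYO2 or MYO3 (adjusted p = 0.0503 to 0.0893), for Flna without CFC3, MYO2 or MYO3 (adjusted p = 0.0584 to 0.138), for Smtn without CFC1, CFC2, MYO1, MYO2 or MYO3 (adjusted p = 0.0548 to 0.214), for Csrp1 without CFC2, MYO2 or MYO3 (adjusted p = 0.138 to 0.254), for Tpm1 without CFC1 or MYO2 (adjusted p = 0.0936 to 0.213), for Myl9 without MYO2 (adjusted p = 0.163) and for Cnn2 without CFC3 (adjusted p = 0.0766). Of 20 tested regulators of contraction and agonist receptors, none was called. P2rx1, a purinergic receptor, had a difference of -2.15 ± 0.73 (adjusted p = 0.178), and Prkg1, a cGMP-dependent kinase, 1.01 ± 0.42 (adjusted p = 0.83). The oxytocin receptor gene Oxtr was spread over both groups, at 197, 1546 and 215 in CFC and 1798, 108 and 487 in MYO, and was not called (adjusted p = 0.978).

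Many smooth muscle genes are switched on by serum response factor, which binds the CArG box, a short A and T rich run between CC and GG. Promoter windows from 250 bases before to 50 bases after the annotated start were available in RefSeq (GRCm38.p6) for 24 of the contractile genes. The called genes Tagln, Myh11, Actg2 and Tgfb1i1 had no window and were not searched. The strict box was found in 5 of them (20.8%), Myl9, Myl6, Cnn2, Vcl and Fhl1, against 1.57% of 13097 tested genes and 1.63% of all 32851 windows. Of these 5, Myl9 (log2 difference 3.02 ± 0.68, adjusted p = 0.00967) and Cnn2 (log2 difference 1.58 ± 0.35, adjusted p = 0.00739) were called. Both calls were lost with a sample left out, Myl9 without MYO2 (adjusted p = 0.163) and Cnn2 without CFC3 (adjusted p = 0.0766). Myl6, Vcl and Fhl1 had differences of 0.51 ± 0.41, 1.06 ± 0.42 and 0.59 ± 0.56 and were not called. A relaxed form with exactly 1 C or G among the inner 6 bases was tried after the strict search had missed Acta2. Strict boxes do not match this form. It was found in 2 of 24 genes (8.33%), Acta2 and Myl9, against 9.45% of tested genes, a share near the background. The windows of Myl9 and Acta2 are shown as the strict and the relaxed case, on the strand of the gene, with the box of that case in capitals. The relaxed box of Myl9, 99 bases before the start, is left in lower case. Matches were sought on both strands and are a description of letters, not of binding.
Myl9, chr2:156775214-156775513, plus strand, strict box 161 bases before the start: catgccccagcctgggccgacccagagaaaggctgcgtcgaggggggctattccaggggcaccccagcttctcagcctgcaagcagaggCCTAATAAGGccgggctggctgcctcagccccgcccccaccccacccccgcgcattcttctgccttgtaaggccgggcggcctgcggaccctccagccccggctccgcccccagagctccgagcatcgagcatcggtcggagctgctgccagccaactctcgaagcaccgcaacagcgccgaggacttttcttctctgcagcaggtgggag
Acta2, chr19:34255324-34255623, minus strand, relaxed boxes 84 and 34 bases before the start: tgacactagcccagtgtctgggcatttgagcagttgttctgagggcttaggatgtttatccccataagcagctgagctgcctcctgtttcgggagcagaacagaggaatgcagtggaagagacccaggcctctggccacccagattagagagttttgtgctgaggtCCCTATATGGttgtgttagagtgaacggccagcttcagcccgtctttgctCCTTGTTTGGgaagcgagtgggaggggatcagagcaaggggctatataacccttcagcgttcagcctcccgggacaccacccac

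Basal keratins and anchoring genes were among those called higher in MYO. Of 23 tested basal keratin and adhesion genes, 10 rose and none fell (median 1.64). Krt5, the type II keratin of the basal layer, had signals of 1280, 181 and 1135 in CFC and 19242, 41731 and 30792 in MYO (log2 difference 5.11 ± 0.45, adjusted p = 3.26e-08). Its partner Krt14 had 1176, 313 and 3131 in CFC and 32049, 68139 and 22252 in MYO (log2 difference 4.86 ± 0.49, adjusted p = 2.65e-07), and Krt17, a keratin of basal and stressed epithelium, 309, 662 and 110 in CFC and 5856, 14988 and 11698 in MYO (log2 difference 4.48 ± 0.51, adjusted p = 2.14e-06). The groups were far apart for all 3 keratins, and CFC2 held the lowest Krt5 and Krt14 signals. A second probe set of Krt14 was called with a difference of 5.62, and another, at 1112 to 2508 on all arrays, gave 0.44. Trp63, the transcription factor p63 that maintains basal identity, gave 197, 1209 and 82.5 in CFC and 7468, 9526 and 9606 in MYO (log2 difference 4.23 ± 0.55, adjusted p = 1.48e-05). CFC2 was the highest CFC array and still lay well under every MYO array. The other probe sets of Trp63 had differences of -0.44 and 1.24 and were not called.

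Genes that anchor cells to the basement membrane were among the members called. Col17a1, the transmembrane collagen of hemidesmosomes, gave 143, 857 and 130 in CFC and 6493, 8349 and 5518 in MYO (log2 difference 3.97 ± 0.56, adjusted p = 4.81e-05). Itga6, the integrin subunit that pairs with beta 4 in hemidesmosomes and a common sort antigen for basal cells, gave 7534, 6114 and 4766 in CFC and 17053, 38446 and 17613 in MYO (log2 difference 1.88 ± 0.36, adjusted p = 0.00183). Its CFC arrays were well above 300, and the groups did not overlap. Lama3 rose by 2.48 ± 0.44 (adjusted p = 0.000879), while Itgb4 gave 120, 367 and 1579 in CFC and 520, 720 and 2047 in MYO and was not called (adjusted p = 0.861). Both were chosen after their values were seen. Perp was also called, and so was Lamb3, though not without CFC1, CFC3, MYO1, MYO2 or MYO3 (adjusted p = 0.0514 to 0.195). Lgals7, the galectin of stratified epithelia, was called higher (log2 difference 2.62 ± 0.71, adjusted p = 0.0451), but its call ended without CFC1, CFC2, MYO1, MYO2 or MYO3 (adjusted p = 0.0835 to 0.291). Without the variance trend the list had 5 calls.

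**Figure D2:**
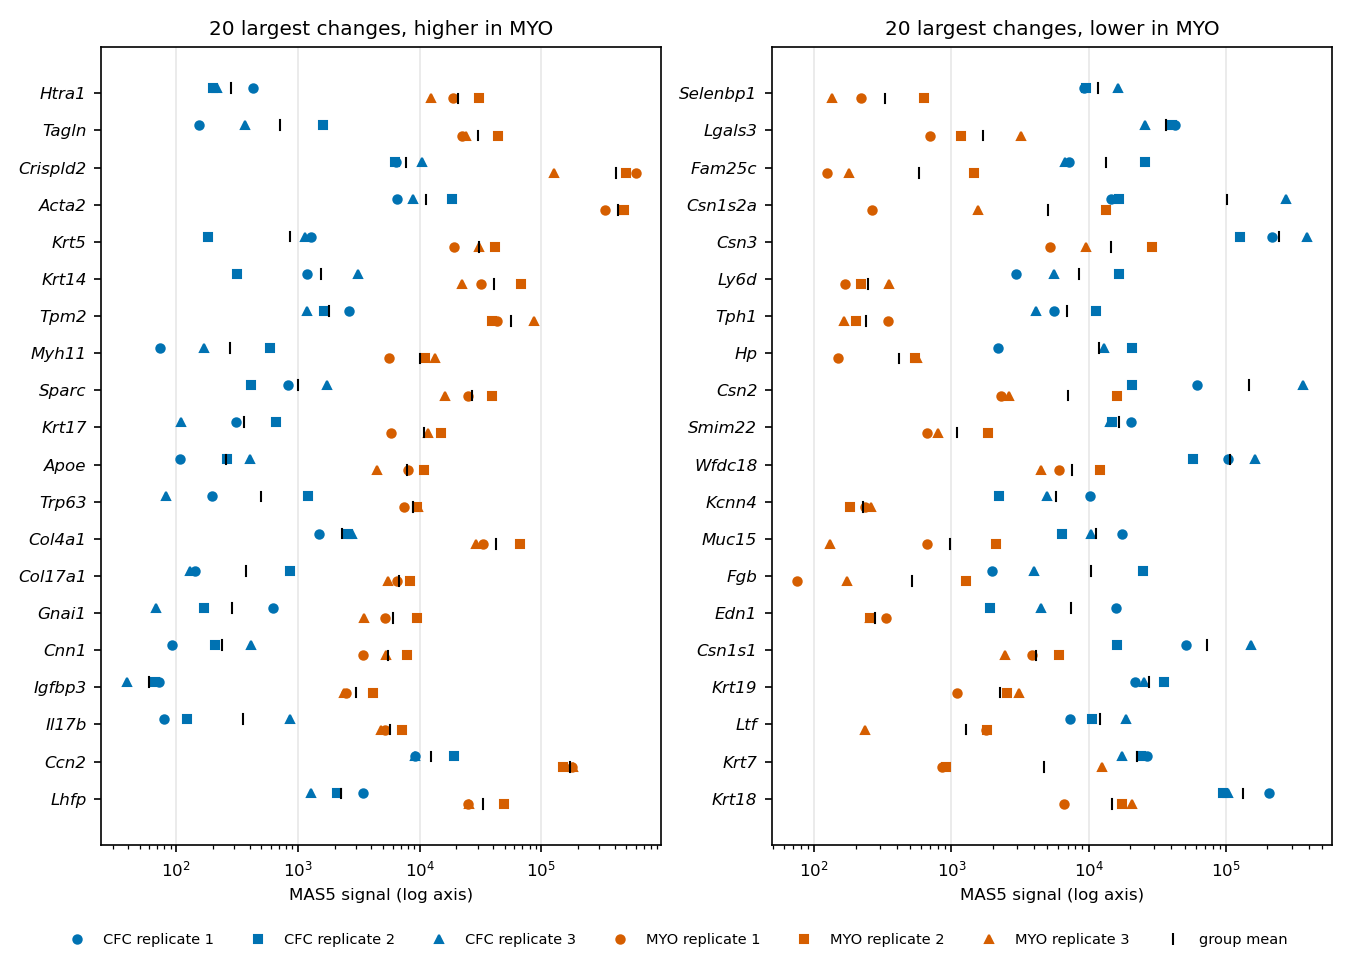
Signal of each of the 6 samples for the 20 called genes of largest difference in each direction without overlap between groups. The horizontal axis is the MAS5 signal on a log scale, blue symbols are CFC and orange symbols MYO, the symbol shape is the replicate, and the black tick is the group mean. Htra1 and Tagln lead the left panel, and Selenbp1 and Lgals3 the right.

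Of 31 tested genes of the basement membrane and its interstitial neighbours, 10 rose and none fell, with a median difference of 1.55. Sparc, a collagen-binding glycoprotein, had signals of 833, 412 and 1748 in CFC and 24861, 39254 and 16033 in MYO (log2 difference 4.63 ± 0.42, adjusted p = 4.25e-08). Col4a1 and Col4a2 encode the partner chains of the main collagen IV network. Col4a1 gave 1494, 2593 and 2780 in CFC and 33275, 66281 and 28928 in MYO (log2 difference 4.08 ± 0.36, adjusted p = 3.26e-08), and Col4a2 755, 940 and 345 in CFC and 5990, 16715 and 9731 in MYO (log2 difference 3.68 ± 0.46, adjusted p = 7.62e-06). MYO2 was the brightest array for both chains and for Sparc. Postn, the matricellular protein periostin, gave 3204, 4975 and 1430 in CFC and 24151, 30213 and 87357 in MYO (log2 difference 3.74 ± 0.43, adjusted p = 2.37e-06), with MYO3 the brightest. Vcan, Col18a1, Lama1, Lamb1, Lamc1 and Col7a1 were also called. Calls were lost for Lama1 without MYO2 (adjusted p = 0.0663), for Lamb1 without MYO1 or MYO2 (adjusted p = 0.0771 to 0.157), for Lamc1 without CFC1, CFC3, MYO2 or MYO3 (adjusted p = 0.11 to 0.184) and for Col7a1 without MYO2 (adjusted p = 0.0559), and the list had 6 calls without MYO2 and 5 without the variance trend.

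Matricellular and CCN genes had 2 of 13 members called, both higher (median 0.71). Ccn2, connective tissue growth factor, gave 9172, 19150 and 9092 in CFC and 178910, 151814 and 183446 in MYO (log2 difference 3.85 ± 0.40, adjusted p = 3.64e-07), and its 3 MYO arrays lay close together. Bgn, the proteoglycan biglycan, was called (log2 difference 1.96 ± 0.42, adjusted p = 0.00651), but not without MYO2 (adjusted p = 0.0821). Of 22 metalloproteases and inhibitors 2 rose (median 0.39). These were Adamts1, an aggrecan-cleaving protease, at 2098, 1061 and 1967 in CFC and 15481, 28209 and 6100 in MYO (log2 difference 2.97 ± 0.44, adjusted p = 7.78e-05), and the gelatinase Mmp2 (log2 difference 2.03 ± 0.44, adjusted p = 0.00739), whose call ended without MYO2 (adjusted p = 0.15). Without CFC1 another member of that list was called lower. Without the variance trend the matricellular list had 1 call and the metalloproteases none, and scan day as a block left 1 in each. Of 10 serpins 3 rose (median 0.82). Serpina3n, a secreted inhibitor of serine proteases, gave 352, 201 and 3692 in CFC and 12089, 9358 and 9654 in MYO (log2 difference 3.57 ± 0.58, adjusted p = 0.000243), and CFC3 was by far the highest CFC array. Serpinh1, the collagen chaperone HSP47, gave 6657, 6594 and 3119 in CFC and 17872, 65230 and 39985 in MYO (log2 difference 2.77 ± 0.40, adjusted p = 7.11e-05). The intracellular Serpinb11 was called (log2 difference 2.62 ± 0.54, adjusted p = 0.00436), though not without MYO1 or MYO2 (adjusted p = 0.0692 to 0.0855). No serpin was called without the variance trend.

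Among the called genes, each by its representative probe set, the largest difference was in a secreted protease, and it rests on CFC signals near the filter level of 300. Htra1, a serine protease that cleaves matrix proteins, had signals of 431, 201 and 218 in CFC and 18793, 30702 and 12318 in MYO, a 46.0-fold difference (log2 difference 5.52 ± 0.44, adjusted p = 9.13e-09). No CFC array exceeded 431, and a further probe set of Htra1 was called the same way. Crispld2, a secreted protein of the CAP family measured on chip B, gave 6455, 6216 and 10459 in CFC and 598658, 500233 and 127324 in MYO (log2 difference 5.46 ± 0.47, adjusted p = 9.92e-09). MYO1 and MYO2 had the brightest signals named here, and MYO3 stood lower but still far above CFC. Lhfp, a tetraspan membrane protein also on chip B, gave 3401, 2112 and 1281 in CFC and 24995, 48956 and 25372 in MYO (log2 difference 3.81 ± 0.43, adjusted p = 1.36e-06). Rnf217, a ubiquitin ligase, was the remaining gene called higher on chip B (log2 difference 1.94 ± 0.41, adjusted p = 0.0316), and it lost its call without CFC2, CFC3, MYO1 or MYO2 (adjusted p = 0.2 to 0.337). Suco (adjusted p = 0.0529) and Nexn, an actin-binding protein (adjusted p = 0.0594), followed on chip B and were not called. Crispld2 (adjusted p = 0.0517), Lhfp (adjusted p = 0.165) and Rnf217 (adjusted p = 0.732) lost their calls without the variance trend.

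Further secreted and signalling genes completed the MYO side. Apoe, the lipid-carrying apolipoprotein, gave 108, 261 and 400 in CFC and 8062, 10948 and 4424 in MYO (log2 difference 4.27 ± 0.54, adjusted p = 1.04e-05). Il17b, a cytokine of the interleukin 17 family, gave 79.8, 123 and 855 in CFC and 5212, 7175 and 4785 in MYO (log2 difference 3.86 ± 0.60, adjusted p = 0.000159), with CFC3 the highest CFC array. Gnai1, an inhibitory G protein subunit, gave 618, 169 and 67.5 in CFC and 5166, 9580 and 3464 in MYO (log2 difference 3.93 ± 0.61, adjusted p = 0.00015). The groups did not overlap for any of these. Of 25 genes of the FGF and IGF axis 3 rose (median 0.43). Igfbp3, a binding protein that sequesters insulin-like growth factors, gave 72.6, 67.4 and 39.1 in CFC and 2480, 4142 and 2412 in MYO (log2 difference 3.88 ± 0.73, adjusted p = 0.00153). The CFC signals were below 100 on every array. Another probe set, on chip B, had a higher mean log2 signal and was not called (difference 1.94, adjusted p = 0.82). Igfbp4 gave 1040, 3615 and 1255 in CFC and 10519, 23502 and 21420 in MYO (log2 difference 3.25 ± 0.42, adjusted p = 1.19e-05). Irs2, an adaptor of the insulin receptor, was called (log2 difference 2.29 ± 0.55, adjusted p = 0.0163), but not without CFC2, MYO1 or MYO2 (adjusted p = 0.0792 to 0.161). Without MYO3 the list had 5 members called and without the variance trend 1.

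In the TGF-beta and BMP list 4 of 32 genes rose (median 0.34), and 3 of them encode extracellular proteins. Fst, follistatin, which binds activins, gave 770, 102 and 493 in CFC and 7861, 8206 and 2495 in MYO (log2 difference 3.41 ± 0.59, adjusted p = 0.000585), and Fstl1, a follistatin-like glycoprotein, 403, 150 and 123 in CFC and 5527, 5754 and 3270 in MYO (log2 difference 3.77 ± 0.61, adjusted p = 0.000237). Ltbp2, a latent TGF-beta binding protein family member of the microfibrils, was called (log2 difference 2.93 ± 0.64, adjusted p = 0.00692), though not without MYO1 (adjusted p = 0.0806). The fourth was Id4, an inhibitor of helix-loop-helix factors (log2 difference 1.61 ± 0.41, adjusted p = 0.0255), which lost its call without CFC2, CFC3, MYO1 or MYO2 (adjusted p = 0.0537 to 0.219), and the list had 2 calls without MYO1 and 1 without the variance trend. Of 33 Wnt pathway genes only Fzd7, a Wnt receptor, was called, at 1253, 1586 and 1580 in CFC and 6109, 15210 and 10791 in MYO (log2 difference 2.65 ± 0.40, adjusted p = 8.48e-05), and without MYO3 there were 2, without the variance trend none. None of 22 Notch pathway genes was called. The ligand Dll1 had a difference of 1.14 ± 0.45 (adjusted p = 0.304) and the glycosyltransferase Rfng -1.40 ± 0.55 (adjusted p = 0.306). None of 38 axon guidance and neurotrophin genes was called either, with a median of 0.47. Unc5b, a netrin receptor, had 1.87 ± 0.79 (adjusted p = 0.388), and Ntn4, a netrin of basement membranes, 1.22 ± 0.49 (adjusted p = 0.821). Among 15 genes of the EGF family, Erbb3, the neuregulin receptor, fell, with 9985, 8872 and 6617 in CFC and 634, 1895 and 1238 in MYO (log2 difference -2.71 ± 0.42, adjusted p = 0.000151), while a second probe set had a difference of 0.99 and was not called. Without MYO3 another member was called higher, and without the variance trend none was called.

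Transcription factors of the basal or mesenchymal state had 5 of 29 members higher and none lower (median 0.33). Beside Trp63 these were Snai2, Egr2, Id4 and Nfix, and Id4 was not called without CFC2, CFC3, MYO1 or MYO2 (adjusted p = 0.0537 to 0.219). Snai2, the repressor Slug, gave 80.5, 150 and 1051 in CFC and 2736, 2213 and 3832 in MYO (log2 difference 2.78 ± 0.70, adjusted p = 0.025), and this call ended without CFC1, CFC2, MYO1, MYO2 or MYO3 (adjusted p = 0.067 to 0.151). Its chip B probe set was brighter and had a difference of 4.54 with an adjusted p of 6.77e-08. Egr2, a zinc finger factor, was called (log2 difference 2.21 ± 0.45, adjusted p = 0.0037), but not without MYO2 (adjusted p = 0.087), and Nfix was called (log2 difference 1.61 ± 0.43, adjusted p = 0.0431), but not without CFC1, CFC2, CFC3, MYO1 or MYO2 (adjusted p = 0.102 to 0.276). The list had 3 calls without CFC1, 2 without CFC2 or MYO1, and 1 without MYO2, with scan day as a block or without the variance trend. Of 24 luminal transcription factors, 2 fell and 1 rose (median -0.46). Foxa1, the pioneer factor of the oestrogen receptor, had 2027, 7190 and 1901 in CFC and 200, 549 and 877 in MYO (log2 difference -2.34 ± 0.63, adjusted p = 0.0441) and lost its call without CFC1, CFC2, MYO1 or MYO2 (adjusted p = 0.0741 to 0.527). Ehf, an Ets factor of luminal progenitors, had 3512, 1364 and 4346 in CFC and 738, 402 and 254 in MYO (log2 difference -2.32 ± 0.63, adjusted p = 0.0456) and lost its call without CFC1, CFC3, MYO2 or MYO3 (adjusted p = 0.09 to 0.326). Runx1 was called higher, at 2084, 1942 and 2121 in CFC and 5955, 7506 and 8471 in MYO (log2 difference 1.75 ± 0.37, adjusted p = 0.00544), while its other 5 probe sets, from -1.39 to 0.89, were not. Among these, a chip B probe set had a higher mean log2 signal than the called probe set. Elf5, the Ets factor of alveolar progenitors, had 2826, 2611 and 1554 in CFC and 939, 493 and 235 in MYO and was not called (adjusted p = 0.162), although its arrays did not overlap. The hormone receptor genes Esr1 (-0.30 ± 0.75) and Pgr (-0.13 ± 0.80) were dim in both groups and were not called. No luminal factor was called without the variance trend, and with scan day as a block none was lower. Elf5, Esr1 and Pgr were chosen after their values were seen.

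**Figure D3:**
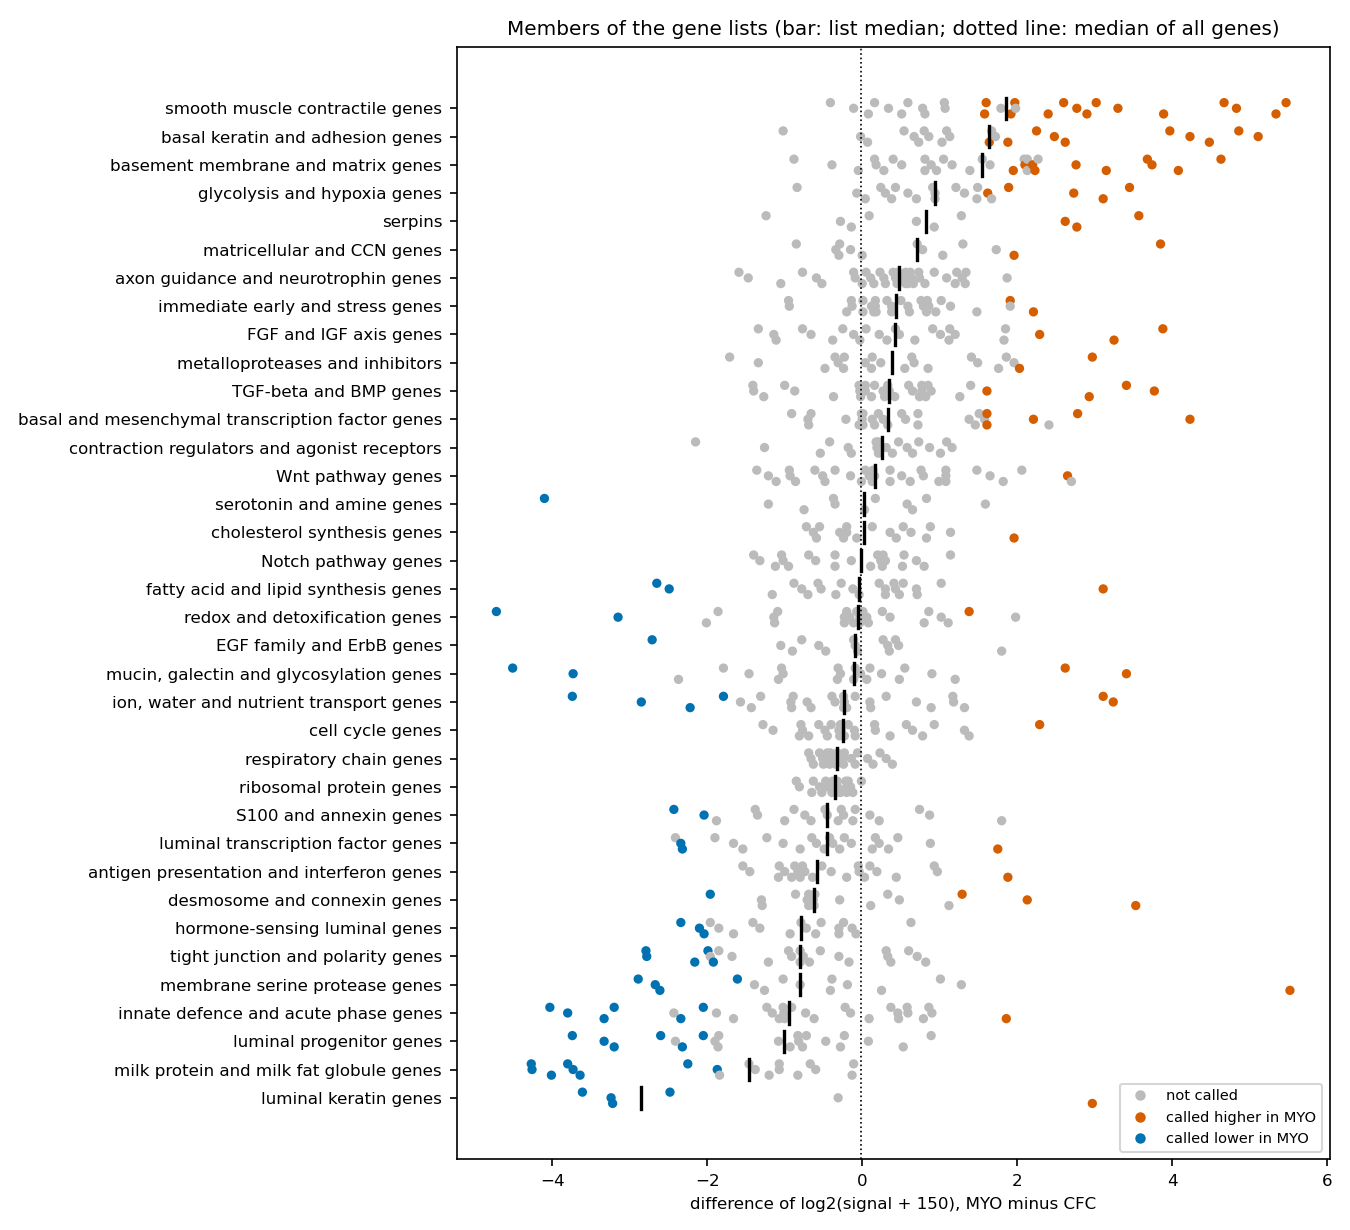
Difference between MYO and CFC for the members of 36 gene lists, ordered by list median. Each point is 1 gene, the horizontal axis is the difference of log2(signal + 150), orange and blue mark genes called higher and lower, grey genes were not called, the bar is the list median and the dotted line the median of all genes (-0.02). Contractile genes have the highest median (1.86) and luminal keratins the lowest (-2.85).

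Luminal keratins had the lowest median of the lists examined. Of 6 tested, 4 fell and 1 rose, with a median difference of -2.85. Krt19, the smallest simple keratin, had signals of 21822, 35211 and 25201 in CFC and 1101, 2545 and 3085 in MYO (log2 difference -3.61 ± 0.37, adjusted p = 3.49e-07). Krt18 had 203907, 95288 and 102470 in CFC and 6620, 17387 and 20631 in MYO (log2 difference -3.22 ± 0.44, adjusted p = 2.83e-05), and its partner Krt8 240112, 145205 and 141188 in CFC and 13356, 55682 and 37213 in MYO (log2 difference -2.48 ± 0.50, adjusted p = 0.00299). For each of these, all MYO arrays were below all CFC arrays, but Krt8 was still bright in MYO2 and MYO3. The call of Krt8 ended without MYO1 (adjusted p = 0.0972). Krt7 had 26377, 23877 and 17419 in CFC and 851, 906 and 12420 in MYO (log2 difference -3.24 ± 0.57, adjusted p = 0.000748), and MYO3 lay close to the lowest CFC array while MYO1 and MYO2 lay far below. Krt23 went the other way, at 1047, 224 and 750 in CFC and 3742, 4263 and 11056 in MYO (log2 difference 2.97 ± 0.54, adjusted p = 0.00099), so the member that rose does not share the direction of the simple keratins named above. Only 1 luminal keratin was called lower and none higher without the variance trend.

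Tight junction and polarity genes had 5 of 24 members lower and none higher (median -0.80). Cldn3, a barrier claudin, had 21122, 11251 and 14227 in CFC and 3191, 1718 and 1577 in MYO (log2 difference -2.78 ± 0.37, adjusted p = 2.21e-05), without overlap, and 3 further probe sets of it were called the same way. Cldn4 (log2 difference -1.99 ± 0.44, adjusted p = 0.00829) was not called without CFC1 (adjusted p = 0.113), Cldn7 (log2 difference -2.16 ± 0.48, adjusted p = 0.00807) was not called without CFC1 or MYO2 (adjusted p = 0.0562 to 0.0965), and Marveld2, the tricellular junction protein tricellulin (log2 difference -2.79 ± 0.70, adjusted p = 0.0262), was not called without CFC1, CFC2, MYO2 or MYO3 (adjusted p = 0.0519 to 0.318). Epcam, the epithelial adhesion molecule, had 80011, 72148 and 40616 in CFC and 9375, 33135 and 13728 in MYO (log2 difference -1.92 ± 0.42, adjusted p = 0.00799), and it lost its call without CFC2 or MYO1 (adjusted p = 0.0624 to 0.0975). MYO2 was near the lowest CFC array for Epcam, and the chip B probe set had a difference of -0.50. The list had 2 calls without CFC1, 3 without CFC2 or MYO2 or with scan day as a block, and 0 without the variance trend. Cd24a, a luminal surface antigen often used in mammary sorts, fell, with 25521, 71287 and 31490 in CFC and 8192, 12658 and 5371 in MYO (log2 difference -2.21 ± 0.39, adjusted p = 0.000792). Kit, the receptor of stem cell factor and a marker of luminal progenitors, had 1661, 2695 and 2948 in CFC and 124, 176 and 1040 in MYO (log2 difference -2.41 ± 0.70, adjusted p = 0.074), which did not pass the threshold.

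Among desmosome and connexin genes 3 of 18 rose and 1 fell (median -0.62). Gja1, connexin 43, which couples myoepithelial cells through gap junctions, gave 8510, 8245 and 5738 in CFC and 81951, 105878 and 75746 in MYO (log2 difference 3.53 ± 0.35, adjusted p = 1.72e-07). The groups were far apart, and 4 further probe sets were called the same way. Dsp, desmoplakin, the plaque protein that ties keratins to desmosomes, gave 6673, 11036 and 5254 in CFC and 27901, 22341 and 54380 in MYO (log2 difference 2.13 ± 0.37, adjusted p = 0.000684). The plakophilins split. Pkp1, the form of stratified epithelia, was called higher (log2 difference 1.29 ± 0.35, adjusted p = 0.0452), and Pkp2, the form of simple epithelia, lower (log2 difference -1.96 ± 0.53, adjusted p = 0.0433). Neither plakophilin call was stable: Pkp1 lost it without CFC1, CFC2, CFC3, MYO1, MYO2 or MYO3 (adjusted p = 0.0523 to 0.191), and Pkp2 without CFC1, CFC2, CFC3, MYO1 or MYO2 (adjusted p = 0.0769 to 0.225). Pkp2 was also not called with scan day as a block, and without the variance trend the list had 1 higher call and none lower.

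**Figure D4:**
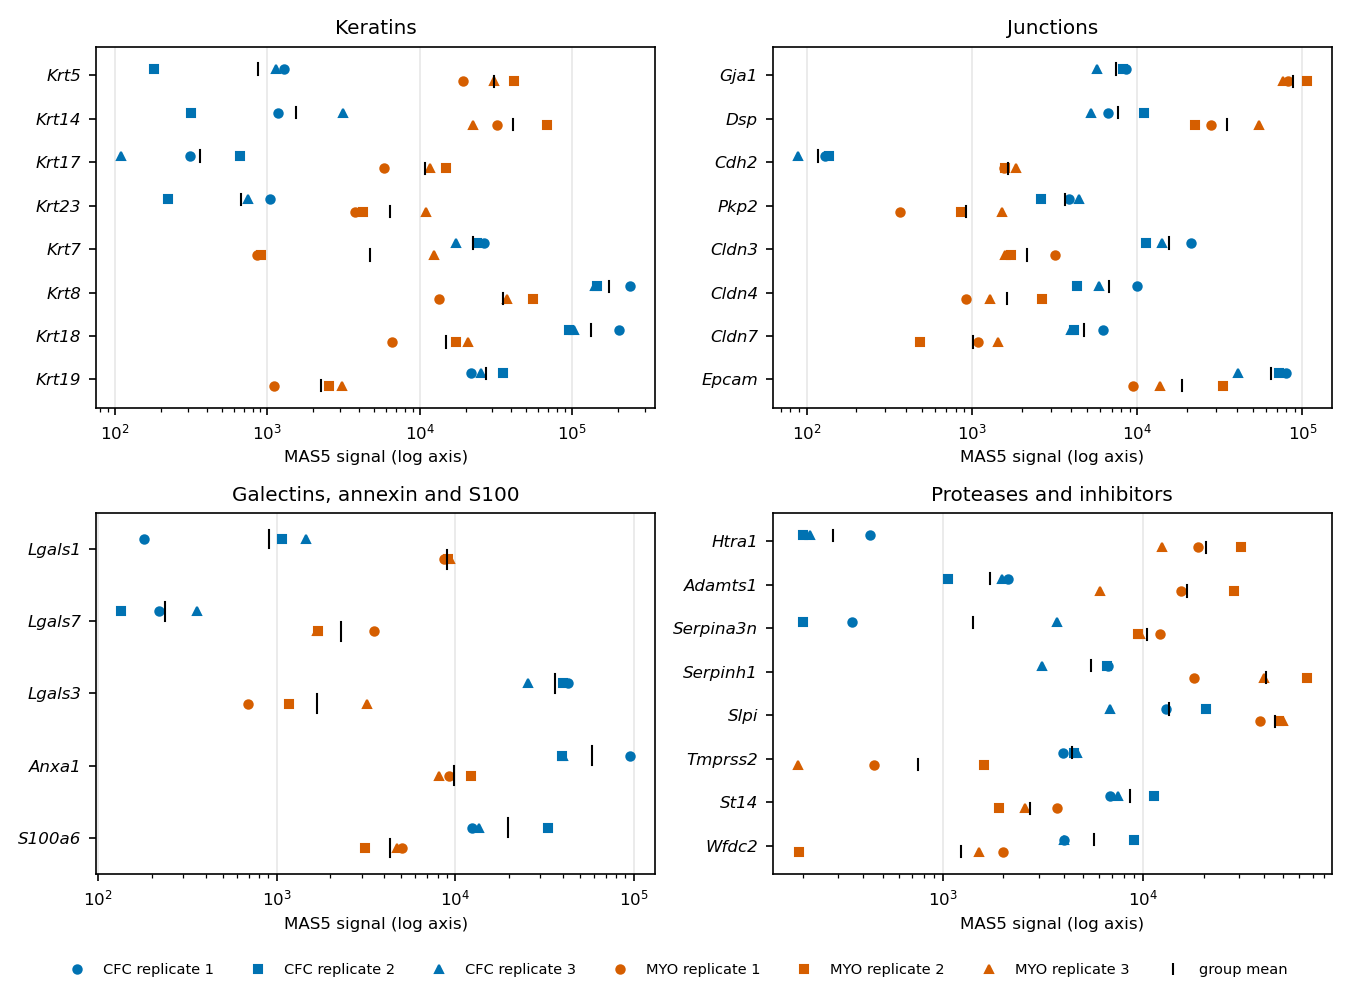
Signals by sample in 4 gene families with members that differ in opposite directions. Axes and symbols are those of the plot of the 20 largest differences: MAS5 signal on a log scale, CFC in blue, MYO in orange, replicate by shape, group mean as a black tick. Krt5 and Krt14 lie to the right in MYO and Krt8, Krt18 and Krt19 to the right in CFC, and Lgals1 and Lgals3 likewise oppose each other.

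Milk protein and fat globule genes had 8 of 19 members lower and none higher, and every tested member had a negative difference (median -1.46). Csn3, kappa-casein, which stabilises the casein micelle, had 215530, 127102 and 385537 in CFC and 5185, 28649 and 9594 in MYO (log2 difference -4.26 ± 0.51, adjusted p = 3.46e-06). A second probe set of Csn3 was not called. Csn2, beta-casein, had 61618, 20580 and 361992 in CFC and 2301, 16144 and 2624 in MYO (log2 difference -4.01 ± 0.66, adjusted p = 0.000319), and Csn1s1, alpha-S1-casein, 51202, 16002 and 150801 in CFC and 3879, 6038 and 2454 in MYO (log2 difference -3.64 ± 0.50, adjusted p = 3.26e-05). Csn1s2a, another alpha-casein, had 14500, 16670 and 274311 in CFC and 264, 13258 and 1558 in MYO (log2 difference -4.27 ± 0.84, adjusted p = 0.0025). CFC3 was the brightest CFC array and MYO2 the brightest MYO array for all 4 caseins, and for Csn1s2a and Csn2 MYO2 came close to the lowest CFC array. Wfdc18, a small secreted WAP-domain protein, had 104029, 56976 and 161762 in CFC and 6072, 12135 and 4487 in MYO (log2 difference -3.80 ± 0.41, adjusted p = 7.19e-07), and Muc15, a mucin of the milk fat globule membrane, 17357, 6343 and 10422 in CFC and 661, 2125 and 130 in MYO (log2 difference -3.73 ± 0.55, adjusted p = 7.6e-05). Plin2, the lipid droplet coat protein, was called but not without CFC1, CFC3 or MYO1 (adjusted p = 0.0647 to 0.247), and Btn1a1, butyrophilin, was called but not without CFC1 (adjusted p = 0.156). Without the variance trend the list had 2 calls.

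Casein genes are activated through Stat5, the transcription factor downstream of the prolactin receptor, which binds the palindrome TTCNNNGAA. This motif, the same on both strands, was in 3 of 12 milk gene windows (25.0%), those of Csn1s1, Csn2 and Csn1s2a, against 8.65% of tested genes and 8.30% of all windows. In Csn1s2a its first base lies 20 bases after the start. Csn3 had no window and was not searched. The windows of Csn1s1 and Csn2, in which the motif lies at about the same distance before the start, are shown on the strand of the gene with the motif in capitals.
Csn1s1, chr5:87665958-87666257, plus strand, motif 100 bases before the start: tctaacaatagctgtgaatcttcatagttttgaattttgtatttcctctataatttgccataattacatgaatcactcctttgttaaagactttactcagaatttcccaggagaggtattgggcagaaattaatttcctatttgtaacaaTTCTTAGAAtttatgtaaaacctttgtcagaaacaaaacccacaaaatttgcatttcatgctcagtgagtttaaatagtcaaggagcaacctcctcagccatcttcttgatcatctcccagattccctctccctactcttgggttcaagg
Csn2, chr5:87699376-87699675, minus strand, motif 93 bases before the start: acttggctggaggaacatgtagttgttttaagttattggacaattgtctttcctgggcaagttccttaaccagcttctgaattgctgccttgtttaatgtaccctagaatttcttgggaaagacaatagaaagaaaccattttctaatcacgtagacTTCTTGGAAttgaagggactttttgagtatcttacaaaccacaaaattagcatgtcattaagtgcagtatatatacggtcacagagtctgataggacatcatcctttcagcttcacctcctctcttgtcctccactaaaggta

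Genes of luminal progenitors had 6 of 22 members lower and none higher (median -1.01). Kcnn4, a calcium-activated potassium channel, had 10199, 2231 and 4957 in CFC and 234, 181 and 260 in MYO (log2 difference -3.74 ± 0.62, adjusted p = 0.000344), and Ltf, lactoferrin, 7282, 10591 and 18562 in CFC and 1791, 1816 and 235 in MYO (log2 difference -3.33 ± 0.51, adjusted p = 0.00011). The MYO arrays of Kcnn4 were all below 300. Cd14, the endotoxin co-receptor, had 10964, 21232 and 53288 in CFC and 599, 2424 and 8424 in MYO (log2 difference -3.20 ± 0.57, adjusted p = 0.000809), with a wide range within each group. Cxcr4, the receptor of Cxcl12, had 4050, 4094 and 4899 in CFC and 394, 233 and 1768 in MYO (log2 difference -2.60 ± 0.56, adjusted p = 0.00683). Ehf and Lbp were the remaining members called, and they lost their calls, Ehf without CFC1, CFC3, MYO2 or MYO3 (adjusted p = 0.09 to 0.326) and Lbp without CFC1, CFC3 or MYO1 (adjusted p = 0.0637 to 0.146). The list had 1 call without the variance trend. Of 19 hormone-sensing luminal genes 3 fell (median -0.79), Foxa1, Ptn and S100a6. Foxa1 was not called without CFC1, CFC2, MYO1 or MYO2 (adjusted p = 0.0741 to 0.527). S100a6, a calcium-binding protein, had 12462, 33225 and 13535 in CFC and 5074, 3127 and 4711 in MYO (log2 difference -2.04 ± 0.37, adjusted p = 0.00119), while Ptn, the growth factor pleiotrophin (log2 difference -2.10 ± 0.55, adjusted p = 0.0351), was not called without CFC2 or MYO3 (adjusted p = 0.219 to 0.292), and the list had 1 call without CFC2 and 0 without the variance trend.

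Innate defence and acute phase genes overlapped with that list and had 6 of 30 members lower and 1 higher (median -0.95). Hp, haptoglobin, which captures free haemoglobin, had 2196, 20644 and 13014 in CFC and 149, 540 and 560 in MYO (log2 difference -4.03 ± 0.61, adjusted p = 0.000102). Wfdc2, a WAP-domain protein, was called lower (log2 difference -2.34 ± 0.56, adjusted p = 0.0164), though not without CFC2 or MYO2 (adjusted p = 0.136 to 0.222). Slpi, a WAP-domain inhibitor of neutrophil elastase, rose, at 12996, 20604 and 6803 in CFC and 38158, 47544 and 50002 in MYO (log2 difference 1.86 ± 0.38, adjusted p = 0.00365), and this call ended without CFC3 (adjusted p = 0.107). So 2 secreted proteins of the same domain family differed in opposite directions. Fgb, the fibrinogen beta chain, is not a member of this list. It had 1985, 25022 and 3978 in CFC and 75.4, 1286 and 174 in MYO (log2 difference -3.68 ± 0.73, adjusted p = 0.00271), with CFC2 above the others, and was not called without CFC2 (adjusted p = 0.17). The innate defence list had 1 lower call and none higher without the variance trend.

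Of 15 membrane serine proteases, a list that also holds the secreted Htra1, 4 fell and only Htra1 rose (median -0.80). Tmprss2 had 3955, 4509 and 4687 in CFC and 453, 1602 and 189 in MYO (log2 difference -2.67 ± 0.56, adjusted p = 0.00532), without overlap. Prss8, prostasin (log2 difference -2.89 ± 0.74, adjusted p = 0.0278), was not called without CFC1, CFC2, CFC3 or MYO2 (adjusted p = 0.0549 to 0.158). Tmprss13 (log2 difference -2.61 ± 0.56, adjusted p = 0.00658) was not called without CFC1 or CFC2 (adjusted p = 0.0648 to 0.0793), and St14, matriptase, the activator of prostasin (log2 difference -1.61 ± 0.37, adjusted p = 0.0123), was not called without CFC2 or MYO2 (adjusted p = 0.0941 to 0.146). The list had 2 lower calls without CFC1 or MYO2, and 1 without CFC2, with scan day as a block or without the variance trend.

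Further genes with large differences on the CFC side had diverse roles. Selenbp1, a selenium-binding methanethiol oxidase, had signals of 9267, 9557 and 16416 in CFC and 220, 630 and 135 in MYO, a 26.4-fold difference (log2 difference -4.72 ± 0.49, adjusted p = 3.59e-07). No MYO array exceeded 630, and a second probe set was called too. Tph1, which catalyses the rate-limiting step of serotonin synthesis, had 5561, 11240 and 4120 in CFC and 346, 202 and 164 in MYO (log2 difference -4.10 ± 0.56, adjusted p = 2.99e-05), and of 11 serotonin and amine genes no other was called. Ly6d, a GPI-anchored surface protein, had 2965, 16712 and 5594 in CFC and 168, 220 and 353 in MYO (log2 difference -4.11 ± 0.60, adjusted p = 6.66e-05). Edn1, the peptide endothelin 1, had 15745, 1894 and 4519 in CFC and 332, 253 and 253 in MYO (log2 difference -3.64 ± 0.64, adjusted p = 0.000671), with CFC1 the highest, and was not called without CFC1 (adjusted p = 0.0803). On chip B the genes called lower were Fam25c, at 7232, 25804 and 6676 in CFC and 123, 1452 and 178 in MYO (log2 difference -4.39 ± 0.68, adjusted p = 0.000398), and Smim22, a small membrane protein, at 20433, 14866 and 14257 in CFC and 662, 1835 and 797 in MYO (log2 difference -3.84 ± 0.48, adjusted p = 8.19e-06). Fam25c was not called without CFC2 (adjusted p = 0.171). Both Fam25c (adjusted p = 0.225) and Smim22 (adjusted p = 0.164) lost their calls without the variance trend. Arhgef6 (adjusted p = 0.121), Sbsn (adjusted p = 0.128) and Exd1 (adjusted p = 0.216) followed on chip B without passing the threshold.

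Of the galectins, Lgals3 was lower and Lgals1 higher in MYO. Lgals3, which binds beta-galactosides at the cell surface and in the nucleus, had 42762, 40375 and 25626 in CFC and 695, 1179 and 3204 in MYO (log2 difference -4.51 ± 0.41, adjusted p = 3.6e-08), and Lgals1 181, 1075 and 1453 in CFC and 8615, 9163 and 9316 in MYO (log2 difference 3.41 ± 0.49, adjusted p = 6.55e-05). The 3 MYO arrays of Lgals1 were nearly equal, and CFC1 was far below the other CFC arrays. In the mucin, galectin and glycosylation list 2 of 23 members rose, Lgals1 and Lgals7, and 2 fell (median -0.11). Lgals7 was not called without CFC1, CFC2, MYO1, MYO2 or MYO3 (adjusted p = 0.0835 to 0.291). The higher count was 1 without CFC1, CFC2, MYO1, MYO2 or MYO3 and with scan day as a block, and without the variance trend it was 0, with 1 lower. Of 21 S100 and annexin genes 2 fell (median -0.45). Anxa1, a phospholipid-binding annexin, had 95380, 39718 and 39993 in CFC and 9194, 12353 and 8141 in MYO (log2 difference -2.43 ± 0.38, adjusted p = 0.000138), with CFC1 above the others, and the other gene was S100a6. Neither was called without the variance trend.

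Transport genes had 4 of 29 members lower and 2 higher (median -0.24). Slc2a1, the glucose transporter GLUT1, gave 10244, 8820 and 13692 in CFC and 56760, 107595 and 136232 in MYO (log2 difference 3.11 ± 0.39, adjusted p = 7.15e-06), and Slc7a5, the large neutral amino acid transporter, 600, 1889 and 411 in CFC and 9647, 5822 and 12131 in MYO (log2 difference 3.24 ± 0.47, adjusted p = 7.11e-05). Both were without overlap. Aqp5, a water channel of secretory epithelia (log2 difference -2.85 ± 0.67, adjusted p = 0.0147), was called lower but not without CFC2 or MYO2 (adjusted p = 0.0777 to 0.206). Slc12a2, the sodium-potassium-chloride cotransporter, and Atp1b1, a sodium pump subunit, were the other members called lower besides Kcnn4. Atp1b1 was not called without CFC1, CFC2 or MYO2 (adjusted p = 0.102 to 0.181). The list had 2 lower calls without CFC2 or MYO2 or with scan day as a block, and without the variance trend 1 in each direction.

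Glycolysis and hypoxia genes had 5 of 22 members higher and none lower (median 0.94). Egln3, an oxygen-sensing prolyl hydroxylase that is itself induced by hypoxia, gave 962, 593 and 3724 in CFC and 8786, 21330 and 21632 in MYO (log2 difference 3.45 ± 0.48, adjusted p = 3.26e-05). Adm, the vasodilator peptide adrenomedullin, gave 1548, 1047 and 1611 in CFC and 6323, 13662 and 11487 in MYO (log2 difference 2.73 ± 0.40, adjusted p = 6.66e-05). For both genes MYO1 was the lowest MYO array and still lay above all CFC arrays. Pfkp, a phosphofructokinase, was called (log2 difference 1.89 ± 0.42, adjusted p = 0.0084) but not without CFC2 or MYO3 (adjusted p = 0.0667 to 0.103), and Hif1a, the hypoxia-inducible factor subunit, was called (log2 difference 1.62 ± 0.40, adjusted p = 0.0217) but not without CFC3 or MYO2 (adjusted p = 0.152 to 0.231). Without MYO1 the list had 8 calls and without the variance trend 1. The 24 respiratory chain genes had none called (median -0.33), with Cox5a at -0.69 ± 0.34 (adjusted p = 0.537) and Cox4i1 at -0.63 ± 0.34 (adjusted p = 0.621). The 22 ribosomal protein genes had none called and no positive difference (median -0.35), and the named members were Rps9 at -0.85 ± 0.38 (adjusted p = 0.442) and Rplp0 at -0.81 ± 0.44 (adjusted p = 0.616).

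Lipid metabolism gave few calls. Fabp5, an epidermal fatty acid binding protein, gave 3866, 3312 and 3363 in CFC and 56847, 36276 and 14994 in MYO (log2 difference 3.11 ± 0.39, adjusted p = 7.31e-06), whereas Scd1, the desaturase that makes monounsaturated fatty acids, had 16062, 18178 and 28923 in CFC and 2802, 2735 and 5619 in MYO (log2 difference -2.49 ± 0.36, adjusted p = 6.66e-05). Neither overlapped, and MYO3 was the lowest MYO array for Fabp5. Lpin1, a phosphatidate phosphatase, was called lower (log2 difference -2.65 ± 0.72, adjusted p = 0.0451) but not without CFC1, CFC2, CFC3, MYO1 or MYO2 (adjusted p = 0.104 to 0.25). The fatty acid list thus had 1 of 23 members higher and 2 lower (median -0.04), with 2 higher without MYO3. None was called in either direction without the variance trend. Of 18 cholesterol synthesis genes 1 rose (median 0.03), Hmgcs1, the synthase ahead of HMG-CoA reductase (log2 difference 1.96 ± 0.44, adjusted p = 0.00977), but not without CFC2 or MYO2 (adjusted p = 0.0769 to 0.213), nor with scan day as a block or without the variance trend. Of 26 redox genes 2 fell and 1 rose (median -0.05): beside Selenbp1, Gpx3, a secreted glutathione peroxidase, had 3356, 8358 and 6953 in CFC and 246, 1206 and 417 in MYO (log2 difference -3.15 ± 0.53, adjusted p = 0.000458). Aldh2 was called higher (log2 difference 1.38 ± 0.36, adjusted p = 0.0327) but not without CFC1, CFC2, CFC3, MYO1 or MYO2 (adjusted p = 0.0619 to 0.159). The redox list had 1 lower call and none higher without the variance trend.

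Proliferation and stress genes gave few calls. Of 28 cell cycle genes only Ccnd2, cyclin D2, was called (log2 difference 2.29 ± 0.51, adjusted p = 0.00954), and not without MYO1 or MYO2 (adjusted p = 0.0661 to 0.138) (median -0.25). Of 30 immediate early and stress genes, which respond to tissue dissociation, 2 were called higher (median 0.44). These were Egr2 and Dusp6, a phosphatase of ERK (log2 difference 1.91 ± 0.52, adjusted p = 0.0484). Dusp6 was not called without CFC2, CFC3, MYO1 or MYO2 (adjusted p = 0.0539 to 0.507). Egr2 was not called without MYO2 (adjusted p = 0.087). The count was 0 without MYO2, without the variance trend or with scan day as a block, 4 without CFC1 and 6 without MYO3. Ccnd2, too, was not called without the variance trend or with scan day as a block. In the immediate early and stress list 83.3% of members had a positive difference, against 48.7% of all genes. Their summed signals were uneven, at 1178866, 618589 and 604492 in CFC and 915186, 2135726 and 616043 in MYO. MYO2 was the highest MYO array and CFC1 the highest CFC array. Of 24 antigen presentation and interferon genes only Ifitm3, an antiviral membrane protein, rose, at 2029, 3240 and 3404 in CFC and 12083, 10094 and 10271 in MYO (log2 difference 1.88 ± 0.35, adjusted p = 0.00147), and the list median was -0.58. Ifitm3 was not called without the variance trend.

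Markers of other cell types were examined beside these results. Summed signals are over every marker of a list with a probe set on chip A, whether tested or not. For leukocytes none of 17 tested markers was called, and the 19 chip A markers summed to 13020 to 22080 in CFC and 14135 to 17872 in MYO. Ptprc, the pan-leukocyte CD45, was at 87.7, 607 and 160 in CFC and 588, 743 and 236 in MYO. For endothelium none of 12 tested was called, with sums over 15 of 13444 to 19666 and 10478 to 17574, and Pecam1, Tie1 and Vwf were too dim to be tested. For pericytes none of 10 tested was called, with sums over 11 of 7355 to 13429 and 9938 to 14140. Adipocyte, erythroid and skeletal muscle markers had no call among 7, 5 and 8 tested, and the adipocyte sum of MYO3, 32676, was the only value above 13901. The 11 skin keratinocyte markers on chip A summed to 24845 to 32069 in CFC and 15722 to 23172 in MYO, and of 13 tested on both chips only Dmkn, the secreted protein dermokine, was called, lower in MYO at 5676, 4345 and 12262 in CFC and 1116, 1155 and 675 in MYO (log2 difference -2.63 ± 0.45, adjusted p = 0.000557), though not without the variance trend.

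Some fibroblast and Schwann cell markers were called higher in MYO. Of 15 tested fibroblast markers 2 rose, with a median of 0.78, and the 16 chip A markers summed to 19637 to 31045 in CFC and 31134 to 83150 in MYO. Col3a1, a fibrillar collagen, had 194, 2033 and 602 in CFC and 6659, 22532 and 1742 in MYO (log2 difference 3.00 ± 0.66, adjusted p = 0.00817), with overlap between MYO3 and CFC2, and was not called without CFC1 or MYO2 (adjusted p = 0.0531 to 0.26). Col1a2 (log2 difference 2.0 ± 0.50, adjusted p = 0.0231) was not called without CFC3, MYO1 or MYO2 (adjusted p = 0.0624 to 0.381), so the list had no call without MYO2, and it had none with scan day as a block or without the variance trend. Of the tested fibroblast markers 93.3% had a positive difference, against 48.7% of all genes. Pdgfra and Dcn were chosen outside the naming rule and do not stand for the list. Pdgfra was its only tested marker with a negative difference. Pdgfra (1550, 962 and 575 in CFC and 1706, 244 and 482 in MYO) and Dcn (6433, 13705 and 9484 in CFC and 11538, 15400 and 4690 in MYO) had differences of -0.52 ± 0.75 and 0.00 ± 0.39. Of 8 tested Schwann cell markers 3 rose, Pmp22, Cnp and Egr2, with a median of 1.53. The 8 on chip A had sums of 9728 to 10845 in CFC and 33392 to 56243 in MYO. Egr2, which the basal transcription factor and immediate early lists also hold, was not called without MYO2 (adjusted p = 0.087). Pmp22, a tetraspan protein of myelin that epithelia also express, had 3220, 1867 and 1316 in CFC and 9892, 17873 and 10800 in MYO (log2 difference 2.55 ± 0.38, adjusted p = 0.000102), and Cnp, a myelin-associated phosphodiesterase, 173, 2222 and 380 in CFC and 3599, 6844 and 5033 in MYO (log2 difference 2.80 ± 0.59, adjusted p = 0.00524). The call of Cnp ended without MYO2 (adjusted p = 0.0938), and the list had 1 call without MYO2 or with scan day as a block, 0 without the variance trend and 5 without CFC3 or MYO3. The transcription factor Sox10 had 2342, 1963 and 4183 in CFC and 12482, 5712 and 5310 in MYO, without overlap, and was not called (adjusted p = 0.0746). The part that such cells have in the matrix, collagen and transcription factor results above was not tested.

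**Figure D5:**
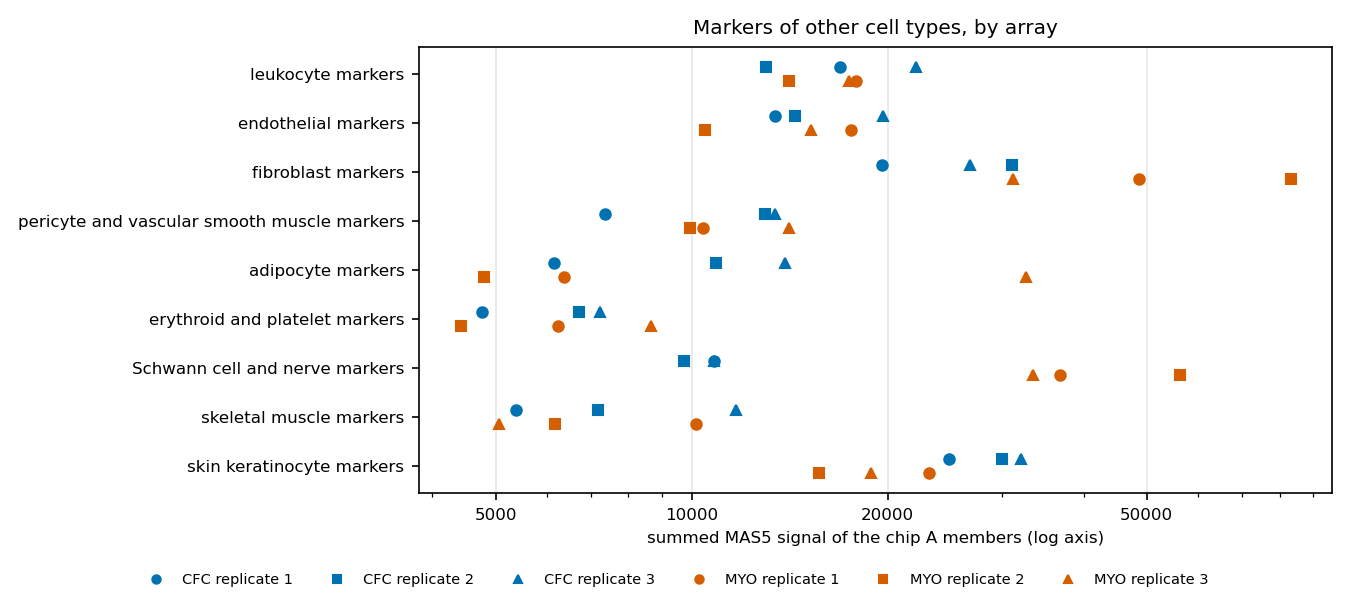
Summed signal of the chip A members of 9 marker lists of other cell types, for each of the 6 samples. The horizontal axis is the sum of MAS5 signals on a log scale, CFC is blue, MYO orange, and the symbol shape is the replicate. Fibroblast and Schwann cell markers sum higher in every MYO sample than in any CFC sample, with MYO2 the highest and MYO3 of the fibroblast list barely above CFC2.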

How the data were processed

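RNA of 3 CFC and 3 MYO samples was read on both chips. The deposited values are MAS5 signal intensities, 1 per probe set and array on a linear scale, per the submitters' processing notes; the version is not given in the sources used here. As deposited, every array had a trimmed mean signal of about 1500 (1499.8 to 1499.9), so no further scaling was made. Of the probe sets, 70.2% to 73.1% on chip A and 76.9% to 80.4% on chip B reached a signal of 300 on each array. The number of arrays limits the precision, and no detection calls entered the filter. The deposited scanner records hold text on the chip and the scan (chip name, sample name, scan day) and no measurement.

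A pseudocount of 150 (10% of the mean) was added before log2. A probe set was tested where at least 3 of 6 arrays reached 300, which left 18138 on chip A and 19945 on chip B. The 100 probe sets on both chips were tested on chip A. Tests used limma 3.58.1 in R 4.3.3 (lmFit, eBayes with a variance trend), each chip alone with 4 residual degrees of freedom, and Benjamini-Hochberg adjustment over all tested probe sets of the chip.

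Names came from the platform annotation, updated through Entrez identifiers in a RefSeq table (GRCm38.p6). On chip A 20380 of 22690 probe sets had 1 symbol, 691 several and 1555 none, and on chip B these were 14661 of 22575, 245 and 7605. A gene's value is that of its probe set of highest mean log2 signal, taken on chip A if that chip has it. Of the called probe sets, 27 had no single gene and are not named.

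The naming rule took the 20 called genes of largest difference without overlap in each direction, up to 4 called members of each of 45 gene lists, 9 fixed markers, the 5 chip B genes of smallest p in each direction, and up to 2 members of smallest p of lists with no call. It gave 133 genes. The groups, the lists and this rule were chosen with earlier results of these data known. The alternatives were other pseudocounts and filters, quantile normalization, no variance trend, all 9 arrays, array weights, the replicate number or scan day as a block, each sample left out, and another representative.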

Additional observations from a re-analysis of the deposited data

How the results depend on the processing

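The counts of 175 genes higher and 100 lower in MYO moved by less than 1.5 times with pseudocounts of 1% and 30% of the chip mean, with no filter or one at 50%, with quantile normalization, array weights, all 9 arrays or another representative. Without the variance trend 35 genes were higher and 10 lower. Scan day as a block, which on each chip leaves out the lone array of the other day, gave 94 higher and 77 lower. With each sample left out, 87 to 182 genes were higher and 62 to 111 lower, the fewest without MYO2 and without CFC2. Replicate number as a block gave 179 and 106, sharing 168 and 96 genes with the fit without it. The labels do not say that the numbers pair samples, and deviations of same-numbered samples correlated at -0.073 to 0.049 on chip A and -0.028 to 0.035 on chip B. No named difference that was called changed sign. Low signal limited the calls: of 4 equal bins of chip A probe sets by mean signal, the dimmest held 3 called probe sets and the brightest 293, with median SDs of 0.90 and 0.46.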

Other observations

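Genes outside the lists were also called, and those below were chosen after their values were seen, so they stand for no group. In MYO 4 genes of proteins that act in or return to the endoplasmic reticulum were called higher. Plod2, a collagen lysyl hydroxylase, had signals of 577, 250 and 1194 in CFC and 2801, 6675 and 5334 in MYO (log2 difference 2.71 ± 0.54, adjusted p = 0.00302), and P4ha1, a catalytic subunit of prolyl 4-hydroxylase, 1259, 985 and 1018 in CFC and 2735, 12215 and 10033 in MYO (log2 difference 2.53 ± 0.48, adjusted p = 0.00155). Kdelr3, a retrieval receptor for endoplasmic reticulum proteins, gave 635, 331 and 229 in CFC and 2688, 2729 and 4038 in MYO (log2 difference 2.63 ± 0.61, adjusted p = 0.0114), and Fkbp9, a prolyl isomerase, 1887, 3910 and 1770 in CFC and 15751, 18344 and 3974 in MYO (log2 difference 2.08 ± 0.46, adjusted p = 0.00739). These calls ended for Plod2 without MYO2 (adjusted p = 0.0858), for P4ha1 without MYO2 (adjusted p = 0.0553), for Kdelr3 without MYO2 or MYO3 (adjusted p = 0.087 to 0.107) and for Fkbp9 without MYO2 (adjusted p = 0.115). Another 5 genes called higher encode secreted or surface proteins. Reln, the secreted glycoprotein reelin, gave 1385, 1149 and 1038 in CFC and 10179, 10567 and 7309 in MYO (log2 difference 2.82 ± 0.39, adjusted p = 3.26e-05), and Pdpn, the mucin-like podoplanin, 264, 434 and 175 in CFC and 6047, 5518 and 3831 in MYO (log2 difference 3.60 ± 0.56, adjusted p = 0.00015). F2r, the thrombin receptor, gave 1113, 755 and 1131 in CFC and 8771, 10022 and 3739 in MYO (log2 difference 2.64 ± 0.45, adjusted p = 0.000439), and Pdgfa, a platelet-derived growth factor chain, 1698, 1663 and 1860 in CFC and 9211, 5583 and 6500 in MYO (log2 difference 1.91 ± 0.38, adjusted p = 0.00324). None of these 4 genes overlapped between groups or lost its call with a sample left out. Cxcl12, the ligand of Cxcr4, gave 105, 1159 and 374 in CFC and 4215, 5822 and 2783 in MYO (log2 difference 2.92 ± 0.61, adjusted p = 0.00445), opposite in direction to its receptor, but was not called without MYO2 (adjusted p = 0.111).

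Of the genes called lower in MYO, 5 were chosen in the same way. Podxl, the sialomucin podocalyxin of apical membranes, had 4500, 18536 and 7587 in CFC and 1049, 1452 and 1014 in MYO (log2 difference -2.74 ± 0.45, adjusted p = 0.000297), and Ceacam1, a carcinoembryonic antigen family adhesion molecule, 28535, 12520 and 15966 in CFC and 2724, 2493 and 2271 in MYO (log2 difference -2.77 ± 0.36, adjusted p = 1.24e-05). Fcgbp, a secreted mucin-like protein, had 11044, 3342 and 6837 in CFC and 460, 429 and 1448 in MYO (log2 difference -2.97 ± 0.51, adjusted p = 0.000586), and Plet1, a surface-anchored glycoprotein, 23289, 10005 and 14408 in CFC and 2122, 6199 and 4130 in MYO (log2 difference -1.94 ± 0.39, adjusted p = 0.00322). In all 4 genes the MYO arrays lay below the CFC arrays, and each call held with every sample left out. Car2, a carbonic anhydrase, had 5684, 1510 and 2829 in CFC and 314, 96.1 and 176 in MYO (log2 difference -3.20 ± 0.71, adjusted p = 0.00815), but was not called without CFC1 (adjusted p = 0.141).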
